A study of Mus musculus with 34 samples.

Results

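The genes described here are 10 mouse regulators of multiciliation: Foxj1, Mcidas, Gmnc, Myb, Trp73, Ccno, Cdc20b, E2f4, E2f5 and Foxn4. They were taken by symbol from a table of raw read counts, through the Ensembl identifier of each gene, and are 10 of the 21647 genes in that table. All 10 were found and all 10 had enough reads to be tested in each knockout line. Multiciliated cells, among them the ependymal cells that line the brain ventricles, leave the cell cycle, build many centrioles at once and dock them as the bases of motile cilia. The coiled-coil proteins Gmnc and Mcidas start this programme and act with E2F transcription factors, which bind DNA for them. Downstream lie transcription factors (Trp73, Myb, Foxn4, Foxj1), a cyclin-like protein of centriole production (Ccno) and a relative of the mitotic activator Cdc20 (Cdc20b).

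The study cultured ependymal cells of mice that lack 1 of 3 RFX transcription factors, a family of winged-helix proteins that bind X-box motifs near cilia genes. Cells were dissociated from the lateral ventricular walls of E18.5 embryos (embryonic day), grown until confluent and then kept without serum for 4 days, a step that lets progenitors become multiciliated, before total RNA was sequenced in bulk. The groups were 4 Rfx1-/- and 4 wild-type sibling (+/+) libraries, 6 Rfx2-/- and 8 wild-type sibling libraries, and 6 Rfx3-/- and 6 wild-type sibling libraries, all labelled C57BL/6 although the sample titles also carry an unexplained "OF1". Each knockout line was set against its own wild-type siblings. The labels do not say whether replicates came from separate embryos or cultures, so p-values measure the spread between these libraries, which may be partly technical. No date, batch or sex of an embryo is given.

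The 34 libraries held 18.2 to 53.4 M counted reads (M, mega). Per group, totals ran over 18.2 to 22.5 M in Rfx1-/- and 19.7 to 50.9 M in its wild types, over 27.4 to 33.4 M in Rfx2-/- and 29.1 to 40.1 M in its wild types, and over 23.1 to 43.1 M in Rfx3-/- and 24.7 to 53.4 M in its wild types. The smallest count of any of the 10 genes was 67 reads, for Foxn4 in an Rfx2-/- library, so counting error is small beside the spread between libraries for most of them. The deleted genes checked the labels. Rfx1 read 19.9 to 30.2 CPM (counts-per-million of the library, with TMM scaling) in Rfx1-/- and 52.8 to 77.4 CPM in wild types, Rfx2 read 43.3 to 55.3 CPM in Rfx2-/- and 83.4 to 126 CPM in wild types, and Rfx3 read 25.2 to 51.8 CPM in Rfx3-/- and 156 to 206 CPM in wild types. The change passed edgeR's test for Rfx2 and Rfx3, and for Rfx1 it was -1.40 on the log2 scale with an adjusted p of 0.0687. Reads of each deleted gene remained in its knockouts, and which exons were removed is not given in the sources used here.

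In the GRCm38 build (GENCODE M21 annotation), Ccno, Mcidas and Cdc20b are neighbours on the forward strand of chromosome 13. Ccno (ENSMUSG00000042417) lies at chr13:112987802-112990777, Mcidas (ENSMUSG00000074651) at chr13:112993845-113000394 and Cdc20b (ENSMUSG00000078926) at chr13:113035111-113091195. Ccno and Mcidas are 3067 bases apart and Mcidas and Cdc20b 34716 bases apart. The microRNA genes Mir449a, Mir449b and Mir449c lie within Cdc20b and were not measured by these libraries. The other genes are spread over the genome. Foxj1 (ENSMUSG00000034227) is at chr11:116330704-116335399, Gmnc (ENSMUSG00000068428) at chr16:26913553-26991652, Myb (ENSMUSG00000019982) at chr10:21124935-21160984, Trp73 (ENSMUSG00000029026) at chr4:154056253-154140208 and Foxn4 (ENSMUSG00000042002) at chr5:114254164-114273807, all on the reverse strand. E2f4 (ENSMUSG00000014859) at chr8:105297663-105305370 and E2f5 (ENSMUSG00000027552) at chr3:14578641-14606309 are on the forward strand.

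Whether reads were counted by strand is not given in the sources used here, so overlapping genes limit 4 of the 10. E2f5 shares 26 exon bases with 1810022K09Rik on the other strand, which is in the table. Antisense transcripts that are not in the table overlap exons of Myb (Gm26577, 559 bases), Trp73 (Trp73os, 280 bases) and Cdc20b (4930563N14Rik, 197 bases), and reads from them cannot be told apart from reads of the genes.

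Since the study removes proteins that bind X-boxes, the promoter windows of the chromosome 13 neighbours and of Trp73 are shown. RefSeq (GRCm38.p6) windows of 300 bases, from 250 before to 50 after a transcription start, were at hand for 7 of the 10 genes, in 9 windows, and not for Foxj1, E2f4 or E2f5. Capitals mark the RFX core GTTGCC, which reads as GGCAAC on the other strand, or the longer X-box that holds it. The windows are given 5′ to 3′ on the gene's strand: Ccno at chr13:112987552-112987851 (forward), Mcidas at chr13:112993618-112993917 (forward), Cdc20b at chr13:113035129-113035428 (forward) and Trp73 at chr4:154139826-154140125 (reverse).
Ccno: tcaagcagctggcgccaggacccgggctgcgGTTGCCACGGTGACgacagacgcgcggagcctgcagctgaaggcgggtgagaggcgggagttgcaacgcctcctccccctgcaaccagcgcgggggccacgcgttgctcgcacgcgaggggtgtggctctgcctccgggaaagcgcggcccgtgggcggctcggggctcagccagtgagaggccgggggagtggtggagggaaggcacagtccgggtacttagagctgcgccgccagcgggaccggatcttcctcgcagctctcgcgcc
Mcidas: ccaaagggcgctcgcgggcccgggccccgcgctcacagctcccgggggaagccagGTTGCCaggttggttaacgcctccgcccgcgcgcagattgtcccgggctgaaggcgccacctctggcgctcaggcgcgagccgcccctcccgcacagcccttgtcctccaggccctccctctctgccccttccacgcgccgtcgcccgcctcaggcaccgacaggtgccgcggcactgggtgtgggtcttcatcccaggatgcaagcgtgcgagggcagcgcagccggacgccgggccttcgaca
Cdc20b: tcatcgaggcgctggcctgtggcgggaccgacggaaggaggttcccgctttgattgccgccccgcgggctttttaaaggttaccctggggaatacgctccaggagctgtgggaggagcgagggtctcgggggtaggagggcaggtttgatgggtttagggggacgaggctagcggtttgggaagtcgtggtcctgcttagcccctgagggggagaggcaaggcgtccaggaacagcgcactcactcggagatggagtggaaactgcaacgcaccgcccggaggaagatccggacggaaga
Trp73: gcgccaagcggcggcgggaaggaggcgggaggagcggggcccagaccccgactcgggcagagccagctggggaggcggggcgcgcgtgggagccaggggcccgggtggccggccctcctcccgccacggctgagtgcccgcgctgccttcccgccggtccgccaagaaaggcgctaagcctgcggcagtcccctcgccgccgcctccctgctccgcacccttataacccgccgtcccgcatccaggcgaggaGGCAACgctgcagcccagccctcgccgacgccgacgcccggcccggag

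The RFX core stands in 12.5% of all 32851 such windows. Among the 9 windows of these genes it stands in those of Ccno and Mcidas and in the Trp73 window shown. In Ccno it begins 219 bases before the start and is part of GTTGCCACGGTGAC, a core followed after a short spacer by the other arm of an X-box. A looser X-box was searched too, GTNRCY followed within 0 to 3 bases by RGYNAC (N any base, R A or G, Y C or T). It is held by 3.29% of all windows and, among the windows of these genes, by that of Ccno alone. In Mcidas the core begins 195 bases before the start, and in Trp73 it lies just past the start. The full X-box consensus (1.86% of all windows) was in none of the 9. The E2F motif TTCCCGC (either strand, 4.6% of windows) was found in Cdc20b, 209 bases before the start, and in Trp73 at 237 and 103 bases before it, and the forkhead motif GTAAACA (either strand, 3.65% of windows) was found in Myb. No motif searched stood in the windows of Gmnc and Foxn4 or in a further Trp73 window at chr4:154097124-154097423. These matches are letters in a window and no evidence of binding.

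In Rfx2-/- cultures, most of the programme below Gmnc was lower. Here 7 of the 10 regulators were called lower than in wild types (Foxn4, Cdc20b, Mcidas, Ccno, Trp73, Foxj1 and Myb) and 0 higher. A gene was called where edgeR's quasi-likelihood test, adjusted over all genes tested in the line by Benjamini-Hochberg, gave an adjusted p below 0.05. By that rule, 18.4% of all genes were lower and 13.9% were higher in Rfx2-/-, which is the background for the count of 7. The median log2 fold change over the 10 genes was -0.74, beside 0.01 over all genes tested. In bulk RNA, fewer multiciliated cells and less RNA per cell cannot be told apart.

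Gmnc, E2f4 and E2f5 were not called in Rfx2-/- with all libraries of the line. Gmnc, which acts at the start of the programme, read 194 to 259 CPM (median 228) in 6 Rfx2-/- libraries and 163 to 253 CPM (median 206) in 8 wild-type libraries. The groups overlapped over most of their range, with a log2 fold change of 0.10 ± 0.12 (SE, edgeR adjusted p = 0.537). With the library number as a block, the estimate was 0.21 ± 0.05 and passed the test (edgeR adjusted p = 0.0134), in a fit that called 14.1% of all genes higher. Gmnc was higher in the knockout library of all 6 number-matched pairs, by less than the shift of any of the 7 genes called lower. The labels do not say that these numbers pair libraries.

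E2f4, a DNA-binding partner of Gmnc and Mcidas, read 31.4 to 37.1 CPM (median 34.3) in Rfx2-/- and 34.4 to 38.5 CPM (median 36.8) in wild types. Its difference of -0.11 ± 0.04 (log2, SE) missed the threshold (edgeR adjusted p = 0.0711), although it passed at an unadjusted p below 0.05. E2f5, the other E2F partner, had a narrow spread, at 24.6 to 26.7 CPM (median 25.9) in Rfx2-/- and 23.3 to 27.5 CPM (median 24.97) in wild types, with a log2 difference of 0.02 ± 0.04 (edgeR adjusted p = 0.742).

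Mcidas, the coiled-coil protein that follows Gmnc, read 11.9 to 23.1 CPM (median 18.2) in Rfx2-/- and 25.9 to 86.6 CPM (median 47.5) in wild types. Every Rfx2-/- library was below every wild-type library, and the mean of 18.1 ± 3.82 CPM (SD, n = 6) was 36.1% of the wild-type mean of 50.2 ± 18.8 CPM (SD, n = 8). The log2 fold change was -1.49 ± 0.24 (SE, edgeR adjusted p = 0.00048).

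Its chromosomal neighbours moved with it. Ccno, which is needed for the mass production of centrioles, read 23.4 to 50.1 CPM (median 38.4) in Rfx2-/- and 47.4 to 138 CPM (median 83.5) in wild types, and 5 of 6 knockout libraries were below every wild type. Cdc20b, which takes part in releasing new centrioles from deuterosomes, read 5.84 to 14.4 CPM (median 8.77) in Rfx2-/- and 12.9 to 56.7 CPM (median 26.0) in wild types, with 4 of 6 knockout libraries below every wild type. The log2 fold changes were -1.18 ± 0.22 for Ccno (edgeR adjusted p = 0.00109) and -1.65 ± 0.32 for Cdc20b (edgeR adjusted p = 0.00153).

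Among the transcription factors downstream, the low-abundance gene Foxn4 had the largest estimate. Foxn4, a forkhead factor needed for multiciliated cells in Xenopus, read 2.22 to 4.68 CPM (median 4.28) in Rfx2-/- and 6.48 to 28.8 CPM (median 14.6) in wild types. The groups did not overlap, the knockout mean was 26.3% of the wild-type mean, and the log2 fold change was -1.95 ± 0.31 (SE, edgeR adjusted p = 0.00043). Trp73, a p53 relative needed for multiciliated cells, read 20.1 to 29.6 CPM (median 28.0) in Rfx2-/- and 30.4 to 72.4 CPM (median 47.7) in wild types. The highest knockout library was again below the lowest wild type, with a log2 fold change of -0.86 ± 0.16 (SE, edgeR adjusted p = 0.00115).

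Foxj1 and Myb fell by less. Foxj1, the forkhead factor that switches on genes of motile cilia, read 639 to 827 CPM (median 760) in Rfx2-/- and 813 to 1466 CPM (median 1143) in wild types, and 5 of 6 knockout libraries were below every wild type. The Foxj1 mean was 66.3% of the wild-type mean, a log2 fold change of -0.62 ± 0.11 (SE, edgeR adjusted p = 0.000978). Myb, which acts early in centriole amplification, read 72.8 to 127 CPM (median 116) in Rfx2-/- and 101 to 231 CPM (median 169) in wild types. Only 1 of 6 knockout libraries was below every wild type for Myb, while 6 of 6 were below the wild-type mean, and the log2 fold change was -0.59 ± 0.16 (SE, edgeR adjusted p = 0.013). Leaving out each library in turn gave 7 genes called lower, or 8 without Rfx2-/- library 2.

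**Figure D1:**
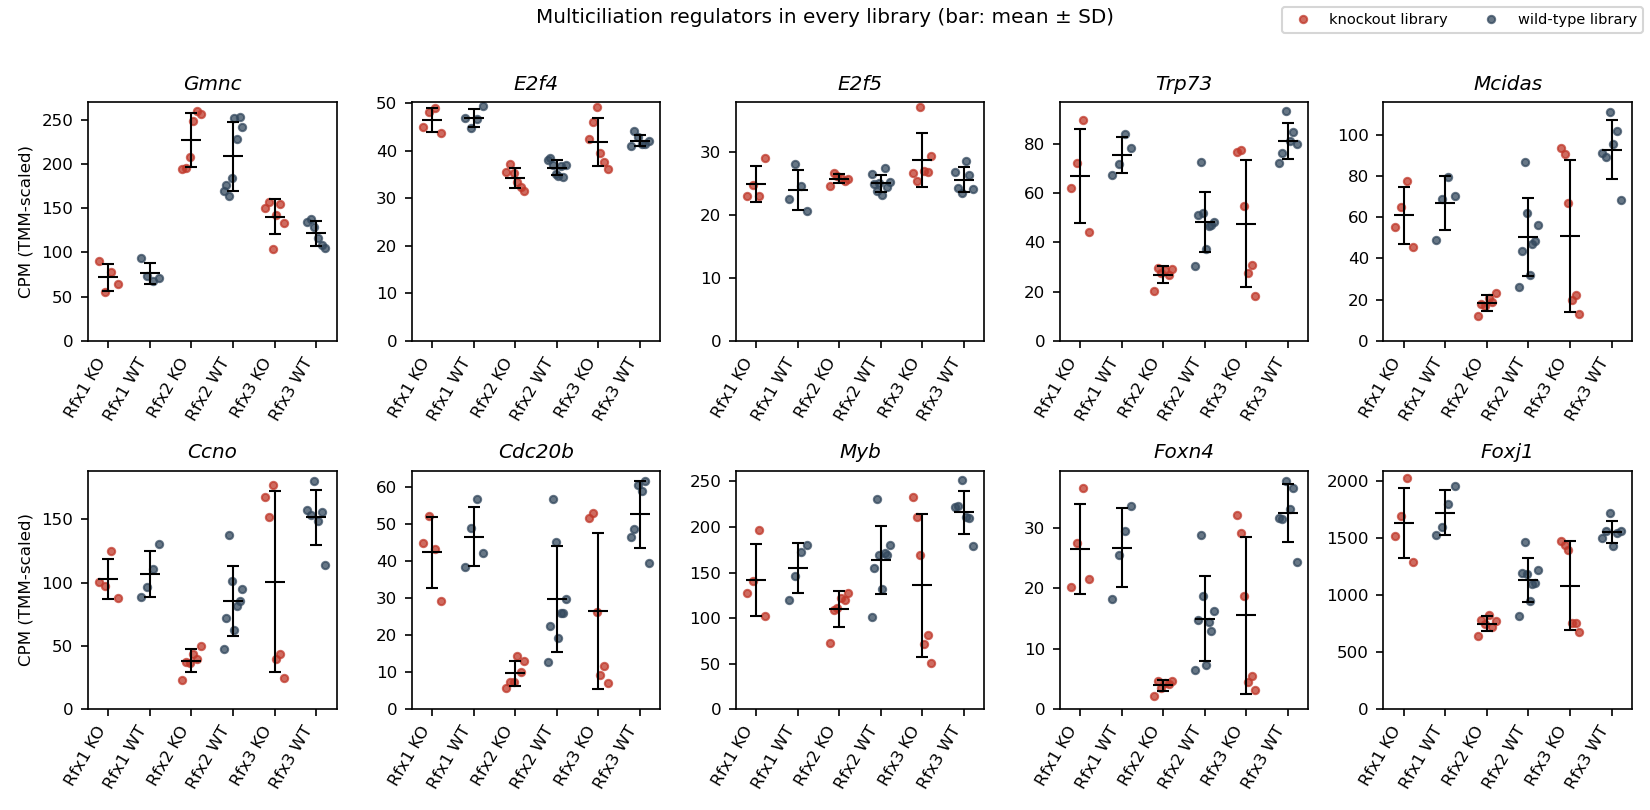
CPM of the 10 regulators in every library, 1 panel per gene, with each knockout group left of its own wild types and the mean ± SD as bars. In the Rfx2 line the knockout points of Mcidas, Trp73 and Foxn4 lie below all wild-type points, and in the Rfx3 line the knockout points of 7 genes split into a high and a low set.

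The libraries of the Rfx2 line numbered 1 to 3 differed from the rest in a marker of oligodendrocyte progenitors. Pdgfra read 64.5, 100 and 96.2 CPM in Rfx2-/- libraries 1 to 3, against 1.78 to 5.49 CPM in libraries 4 to 6. In wild types it read 70.2, 85.8 and 10.1 CPM in libraries 1 to 3, against 1.92 to 3.8 CPM in libraries 4 to 8. With only libraries 4 and above, 8 regulators were called lower, the 7 named and E2f4 (edgeR adjusted p = 0.0374), where 15% of all genes were called lower, and the Mcidas log2 fold change was -1.25. With only libraries 1 to 3 (3 against 3), edgeR called 0 lower and 0 higher, where 4.69% of all genes were called lower. At an unadjusted p below 0.05 it gave 6 lower and 1 higher (Gmnc), beside 4218 of all 14315 genes in either direction. DESeq2 was not run on these subsets. In that small set Mcidas differed by -1.79 (edgeR adjusted p = 0.0591) and Foxn4 by -2.29 on the log2 scale, so the estimates were larger while the test missed its threshold.

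Marker lists of cell types were read in the same line. Of 5 ependymal markers tested, 4 were called lower in Rfx2-/-, beside 18.4% of all genes, and the sum of all 6 listed markers was 196 to 247 CPM in Rfx2-/- and 330 to 480 CPM in wild types. Of 8 oligodendrocyte lineage markers, 1 was called higher, a share near the 13.9% of all genes, with sums of 113 to 461 CPM in Rfx2-/- and 113 to 328 CPM in wild types, and at most 1 of the 8 was at 0 in any library of either group. Of 7 astrocyte markers, 3 were called higher, with sums of 6408 to 11604 CPM in Rfx2-/- and 5015 to 9032 CPM in wild types and none at 0. Of the other lists, 0 neuroblast, 0 microglia and 0 proliferation markers were called in Rfx2-/-, and 1 of 4 choroid plexus markers tested was called lower. The part of these cells in the differences of the regulators was not tested. The fit of libraries 4 and above is a split by library number and does not separate cell types.

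In Rfx3-/- cultures, the level of these genes depended on the library. By the same test, edgeR called 0 of the 10 regulators lower and 0 higher in Rfx3-/-, while 12.9% of all genes were called lower and 10.6% higher. At an unadjusted p below 0.05, 3 were lower (Foxj1, Trp73 and Cdc20b) and 0 higher, beside 5363 of all 14340 genes tested in either direction. DESeq2 called 2 lower, Foxj1 (adjusted p = 0.0367) and Trp73 (adjusted p = 0.0377), beside 15.8% of all genes. When all 34 libraries shared 1 fit, whose spread is estimated over every group, edgeR called 6 lower, beside 17.8% of all genes: Foxj1 (adjusted p = 0.0119), Trp73 (adjusted p = 0.0121), Foxn4 (adjusted p = 0.0334), Cdc20b (adjusted p = 0.0366), Myb (adjusted p = 0.0403) and Mcidas (adjusted p = 0.0415).

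The Rfx3-/- libraries differed widely among themselves. Mcidas read 93.2, 90.5, 66.7, 19.8, 22.2 and 13.2 CPM in Rfx3-/- libraries 1 to 6, and 68.3 to 110.7 CPM (median 93.1) in 6 wild-type libraries. Libraries 1 and 2 were at wild-type level, library 3 was just under the lowest wild type, and libraries 4 to 6 were far below it. The SD of Mcidas was 36.9 CPM around a mean of 50.9 CPM in Rfx3-/- and 14.3 CPM around a mean of 92.7 CPM in wild types (n = 6 each), and the log2 fold change was -0.88 ± 0.44 (SE, edgeR adjusted p = 0.162).

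Foxn4 split in the same libraries, at 32.1, 29.2, 18.7, 4.49, 5.48 and 3.25 CPM in Rfx3-/- libraries 1 to 6, and 24.3 to 37.7 CPM (median 32.4) in wild types. Trp73 read 76.6, 77.5, 54.6, 27.7, 30.8 and 18.3 CPM in Rfx3-/- libraries 1 to 6, and 72.2 to 93.2 CPM (median 80.4) in wild types. For both, libraries 3 to 6 were below every wild type. The log2 fold changes were -1.08 ± 0.50 for Foxn4 (edgeR adjusted p = 0.138) and -0.78 ± 0.30 for Trp73 (edgeR adjusted p = 0.0806).

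Foxj1 read 1473, 1437, 1394, 754, 755 and 677 CPM in Rfx3-/- libraries 1 to 6, and 1431 to 1714 CPM (median 1549) in wild types. Libraries 3 to 6 were again below every wild type, with library 3 by a small margin, and the log2 fold change was -0.53 ± 0.20 (SE, edgeR adjusted p = 0.0706). Myb read 50.3 to 233 CPM (median 125) in Rfx3-/- and 179 to 252 CPM (median 216) in wild types, with 4 of 6 knockout libraries below every wild type and a log2 fold change of -0.68 ± 0.33 (SE, edgeR adjusted p = 0.154).

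The neighbours on chromosome 13 parted in library 3. Ccno read 168, 152, 177, 39.4, 43.9 and 24.9 CPM in Rfx3-/- libraries 1 to 6, and 114 to 181 CPM (median 155) in wild types. Cdc20b read 51.6, 52.9, 26.4, 9.28, 11.7 and 6.96 CPM in the same knockout libraries, and 39.4 to 61.6 CPM (median 53.7) in wild types. In library 3, Ccno was thus within the wild-type range while Cdc20b, Mcidas, Foxn4 and Trp73 were below it. The log2 fold changes were -0.60 ± 0.43 for Ccno (edgeR adjusted p = 0.338) and -1.0 ± 0.46 for Cdc20b (edgeR adjusted p = 0.129).

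Gmnc did not share this split. It read 104 to 157 CPM (median 146) in Rfx3-/- and 104 to 138 CPM (median 123) in wild types, a log2 fold change of 0.20 ± 0.11 (SE, edgeR adjusted p = 0.201). Without Rfx3-/- library 3, its lowest, Gmnc was 0.27 higher on the log2 scale and passed the test (edgeR adjusted p = 0.0195). That fit called 2705 of all 14450 genes tested higher. E2f4 read 36.2 to 49.1 CPM (median 40.9) in Rfx3-/- and 40.9 to 44.1 CPM (median 41.7) in wild types, and E2f5 read 25.4 to 37.1 CPM (median 27.0) in Rfx3-/- and 23.5 to 28.7 CPM (median 25.3) in wild types. Neither E2F gene passed the test (edgeR adjusted p = 0.878 for E2f4 and 0.231 for E2f5).

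Single libraries decided some calls in the Rfx3 line. Without Rfx3-/- library 1, edgeR called Foxj1 (adjusted p = 0.0324) and Trp73 (adjusted p = 0.0329) lower, beside 2069 of all 14327 genes tested. Without library 2 it called the same pair lower (adjusted p = 0.0454 for Foxj1 and 0.0361 for Trp73), beside 2024 of 14455 genes. Without library 3 it called Foxj1 alone lower (adjusted p = 0.0372), beside 2844 of 14450 genes. Leaving out any other library of the line gave 0 calls among the 10.

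**Figure D2:**
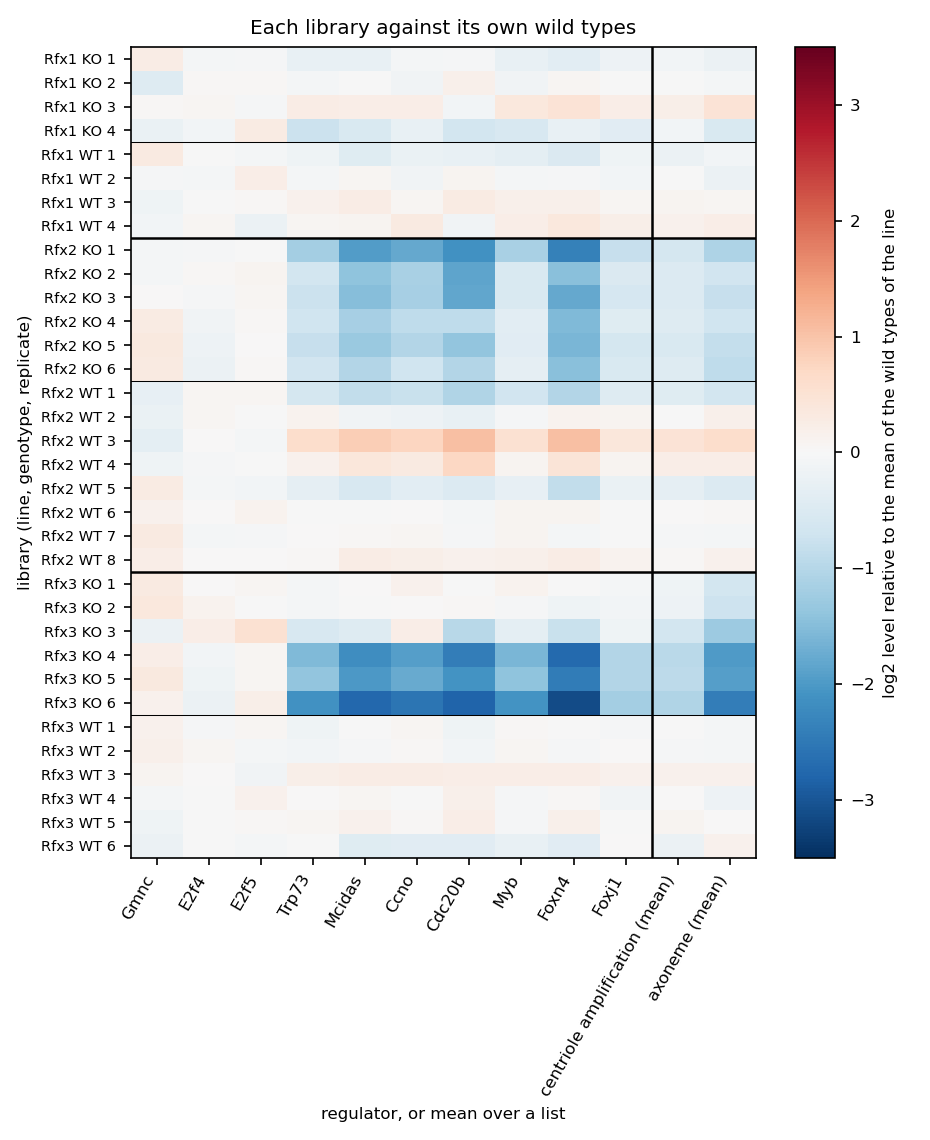
Level of each regulator in each of the 34 libraries, as log2 of its CPM (plus 0.5) relative to the mean of the wild types of the same line. The last columns at the right give the mean over a list of centriole amplification genes and over a list of axoneme genes. All cells share 1 colour scale, and Rfx3-/- libraries 4 to 6 form the low block among the knockouts of that line while libraries 1 and 2 are near 0 for the regulators.

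Marker lists of oligodendrocyte lineage, astrocyte, ependymal and choroid plexus cells split by the same Rfx3-/- libraries as the regulators. The 8 oligodendrocyte lineage markers summed to 527, 602 and 451 CPM in Rfx3-/- libraries 4 to 6, to 208 to 393 CPM in Rfx3-/- libraries 1 to 3, and to 122 to 353 CPM in wild types, with none at 0 in any library. The 7 astrocyte markers summed to 5683, 5659 and 5303 CPM in Rfx3-/- libraries 4 to 6, to 3053 to 4063 CPM in libraries 1 to 3, and to 2496 to 5174 CPM in wild types, with none at 0. Rfx3-/- libraries 4 to 6 were thus above every other library of the line for both sums. The test called 2 of the 8 oligodendrocyte lineage markers and 3 of the 7 astrocyte markers higher in Rfx3-/-, beside 10.6% of all genes.

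The 6 ependymal markers summed to 277 to 303 CPM in Rfx3-/- libraries 4 to 6, to 389 to 468 CPM in libraries 1 to 3, and to 518 to 644 CPM in wild types, and the test called 5 of the 6 lower in Rfx3-/-. The 5 choroid plexus markers summed to 32.1 to 37.7 CPM in Rfx3-/- libraries 4 to 6, to 54.9 to 82.7 CPM in libraries 1 to 3, and to 72.6 to 97.0 CPM in wild types, and 3 of the 4 tested were called lower, beside 12.9% of all genes. At most 1 marker of either list was at 0 in a library. Libraries 4 to 6 were the lowest of the line for both sums. The other marker lists overlapped between Rfx3-/- and wild types. Microglia markers summed to 41.0 to 205 CPM in Rfx3-/- and 39.0 to 323 CPM in wild types. Neuroblast markers summed to 22.3 to 38.7 and 21.0 to 38.2 CPM, and proliferation markers to 564 to 843 and 536 to 724 CPM.

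Pdgfra by itself read 39.8, 4.91, 5.14, 99.9, 134 and 45.3 CPM in Rfx3-/- libraries 1 to 6, and 1.99 to 4.01 CPM in wild-type libraries 1 to 5 with 102 CPM in wild-type library 6. It was high in Rfx3-/- libraries 4 to 6, and also in knockout library 1 and wild-type library 6, in which Mcidas read 93.2 and 68.3 CPM. The libraries with Pdgfra below 30 CPM were Rfx3-/- libraries 2 and 3 and 5 wild types, a selection made after the data were seen. It left out Rfx3-/- libraries 4 to 6, where the mean over the regulators was lowest. In the selected libraries edgeR called 0 regulators lower and 0 higher, beside 3.65% of all genes called lower. At an unadjusted p below 0.05 it gave 2 lower, Foxn4 at -0.53 and Mcidas at -0.33 on the log2 scale. At that threshold 4632 of all 14344 genes passed in either direction. DESeq2 was not run on that selection, and the part of other cell types in the difference was not tested.

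In Rfx1-/- cultures, edgeR and DESeq2 each called 0 of the 10 regulators higher or lower, and 0 passed even at an unadjusted p below 0.05. Of all genes, 0.00723% were called in either direction, which was 1 gene of 13830. With 4 libraries per group, the deleted Rfx1 itself missed edgeR's threshold, so smaller effects on the regulators could go uncalled. Mcidas read 55.3, 64.8, 77.4 and 45.5 CPM in Rfx1-/- and 48.6, 68.9, 79.3 and 70.2 CPM in wild types. Foxj1 read 1512, 1686, 2018 and 1290 CPM in Rfx1-/- and 1528, 1592, 1799 and 1955 CPM in wild types. Both groups spanned much the same range for each gene, and over the 10 genes the knockout means were 88.9% to 104% of the wild-type means, with log2 fold changes of -0.17 to 0.06.

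**Figure D3:**
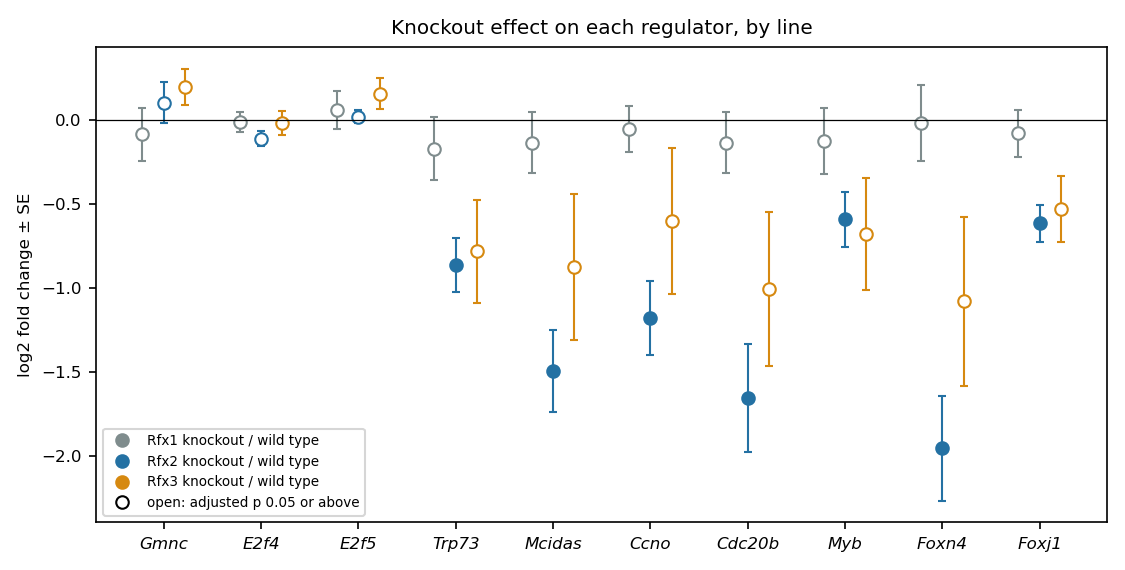
Log2 fold change of knockouts over wild types with its standard error for each regulator, in each of the 3 lines, with filled symbols where edgeR's adjusted p was below 0.05. The 7 filled symbols are all in the Rfx2 line and lie between -0.59 and -1.95, and the error bars of the Rfx3 line are wider for the same genes.

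The difference between lines was tested in a fit of all 34 libraries. No regulator was called in any of the 3 contrasts between lines, by edgeR or by DESeq2. The calls over all genes were 0.829% for Rfx2 against Rfx1, 7.75% for Rfx3 against Rfx1 and 3.84% for Rfx2 against Rfx3. At an unadjusted p below 0.05, edgeR gave 5 regulators with a lower knockout effect in Rfx2 than in Rfx1 (Foxn4, Mcidas, Cdc20b, Ccno and Foxj1), 0 for Rfx3 against Rfx1 and 0 for Rfx2 against Rfx3. The largest was Foxn4, whose effect was lower by 1.91 ± 0.62 on the log2 scale (SE, edgeR adjusted p = 0.135) in Rfx2 than in Rfx1. Between Rfx2 and Rfx3, Mcidas differed by -0.60 ± 0.46 (edgeR adjusted p = 0.505), so calls in the Rfx2 line and their absence in the Rfx3 line do not show that the lines differ for these genes.

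The wild types of the 3 lines were themselves unlike. In an F test over the 3 wild-type groups, edgeR called 6 of the 10 regulators, beside 57.7% of all genes. Gmnc stood first (F = 56.3, edgeR adjusted p = 1.3e-09), at 67.7 to 94.1 CPM in the Rfx1 line's wild types, 163 to 253 CPM in the Rfx2 line's and 104 to 138 CPM in the Rfx3 line's, ranges that do not overlap. E2f4 (adjusted p = 2.01e-05), Foxj1 (0.00407), Trp73 (0.00949), Foxn4 (0.0256) and Mcidas (0.0443) were called by edgeR too, while Ccno (0.0531), Cdc20b (0.0916), Myb (0.206) and E2f5 (0.598) were not. Line and any batch of culture or sequencing cannot be told apart in this comparison.

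Levels of different genes were compared per length, as CPM per kilobase of exon. Foxj1 was the most abundant regulator in every wild-type group, with medians of 646, 436 and 591 CPM per kilobase in the Rfx1, Rfx2 and Rfx3 lines, and Foxn4 the least abundant, with 8.17, 4.34 and 9.61. In the Rfx1 line's wild types the order was Foxj1, Ccno (40.5), Mcidas (29.2), Cdc20b (24.9), E2f4 (19.0), Myb (17.8), Trp73 (13.6), E2f5 (13.3), Gmnc (12.5) and Foxn4, in CPM per kilobase. Neighbours in that order overlapped in range between libraries except at Foxj1 over Ccno, Ccno over Mcidas, Cdc20b over E2f4 and Gmnc over Foxn4.

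Gmnc changed place most between lines. It ranked 9 of the 10 in the Rfx1 line's wild types, next after Foxj1 in the Rfx2 line's (35.9 CPM per kilobase) and between Myb and E2f4 in the Rfx3 line's (21.4 CPM per kilobase). After Gmnc the Rfx2 line's wild types ran Ccno (32.7), Mcidas (19.98), Myb (19.0), E2f4 (15.01), Cdc20b (14.2), E2f5 (14.0) and Trp73 (8.62), where the range over libraries was clear of the next gene's for Foxj1 alone. In the Rfx2-/- libraries Mcidas (7.68 CPM per kilobase) and Cdc20b (4.80) had medians below those of E2f5 (14.5) and Myb (12.9), while Foxj1 (290) was highest and Foxn4 (1.27) lowest. The Rfx3 line's wild types ran Foxj1, Ccno (60.5), Mcidas (39.2), Cdc20b (29.4), Myb (24.2), Gmnc, E2f4 (17.0), Trp73 (14.5), E2f5 (14.2) and Foxn4, and neighbours overlapped except at Foxj1 over Ccno, Gmnc over E2f4 and E2f5 over Foxn4.

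Across the 34 libraries, 7 of the regulators varied together within groups. Deviations of log2 CPM from the group means correlated at r = 0.868 to 0.983 (median 0.955) over the pairs of Foxj1, Mcidas, Myb, Trp73, Ccno, Cdc20b and Foxn4. These are descriptions with no test, and all genes of a library share its culture and depth. The pair correlations were 0.936 to 0.997 within the Rfx3 line, 0.842 to 0.986 within the Rfx2 line and 0.327 to 0.973 within the Rfx1 line, where Ccno with Cdc20b was lowest. Over all libraries Gmnc was near 0 with each of the 7, at -0.080 to 0.078, and so was E2f5, at -0.174 to 0.034. Within the Rfx1 line, of 8 libraries, the values were -0.460 to -0.038 for Gmnc and -0.638 to -0.160 for E2f5. E2f4 correlated with them at 0.345 to 0.647 over all libraries, but at -0.440 to -0.027 in the Rfx2 line and at 0.725 to 0.873 in the Rfx3 line.

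**Figure D4:**
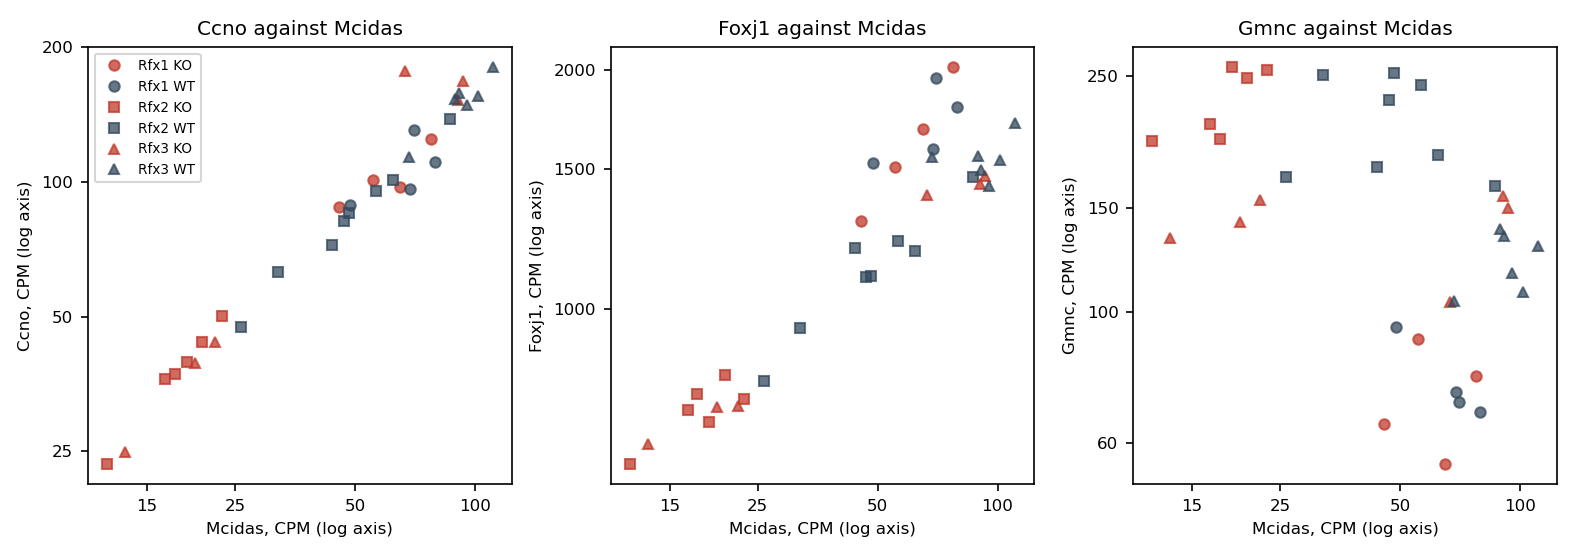
CPM of Ccno, Foxj1 and Gmnc against CPM of Mcidas in the same library, on log axes, 1 point per library in 6 groups. Ccno and Foxj1 rise with Mcidas across all groups, and Gmnc lies at 3 levels, 1 per line, with no slope along Mcidas.

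By the same measure, over the 12879 genes whose log2 CPM averaged 0 or more, the genes most like Mcidas were Deup1 (r = 0.990), which builds the deuterosomes on which centrioles form, then Foxn4 (0.983), Myb (0.975), Ccno (0.972) and Hap1 (0.968). The genes most like Foxj1 were Ccdc151 (0.981), a protein of dynein arm docking, Zmynd10 (0.980), a factor of dynein arm assembly, Fank1 (0.978), Oscp1 (0.977) and Ubxn11 (0.976). Mcidas was the closest gene to Foxn4 (0.983), Myb (0.975), Ccno (0.972) and Cdc20b (0.957). For Trp73 it was Ccdc60 (0.975), for Gmnc the RFX family gene Rfx4 (0.867), for E2f4 Tada3 (0.874) and for E2f5 Mzt1 (0.810).

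Genes that act after the regulators were read from lists of centriole amplification and axoneme genes. In Rfx2-/-, 14 of 18 centriole amplification genes were lower, beside 18.4% of all genes, and 0 higher (median log2 fold change -0.42), among them Ccdc78, a deuterosome-associated protein, at -2.61 (edgeR adjusted p = 0.000131), and the centrin Cetn2 at -0.57 (edgeR adjusted p = 0.00143). All 22 axoneme genes tested were lower in Rfx2-/- (median -0.88), among them Drc1, of the nexin-dynein regulatory complex, at -0.67 (edgeR adjusted p = 0.000193) and the dynein light intermediate chain Dnali1 at -0.83 (edgeR adjusted p = 0.00043). With only libraries 1 to 3 of the line, 1 of the 18 centriole amplification genes and 0 of the 22 axoneme genes were called lower. Deup1 fell by 0.92 on the log2 scale in Rfx2-/- (edgeR adjusted p = 0.00712) and its estimate in Rfx3-/- was -1.05 (edgeR adjusted p = 0.0748).

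In Rfx3-/-, where no regulator was called, 12 of the 18 centriole amplification genes were lower, beside 12.9% of all genes, and 0 higher (median -0.53), among them Ccdc78 at -1.72 and Ccp110, a centriole cap protein, at -0.59 on the log2 scale. That count of 12 was 6 without Rfx3-/- library 4 or 5 or without wild-type library 3 or 5, 7 without Rfx3-/- library 6 or wild-type library 1, and up to 15 with another library left out. Of the 22 axoneme genes 19 were lower and 0 higher (median -1.16), and 17 to 22 were lower with each library left out, among them Spag17, of the central pair, at -3.57 and the dynein heavy chain Dnah5 at -1.61. Per library, the mean over the axoneme list relative to wild types was -0.65, -0.73, -1.26, -1.98, -1.92 and -2.43 (log2) in Rfx3-/- libraries 1 to 6. The mean over the 10 regulators was 0.05, 0.02, -0.25, -1.32, -1.19 and -1.65 in the same libraries. In libraries 1 and 2, axoneme genes were thus under their wild-type mean while the regulators were at it. Among the libraries with Pdgfra below 30 CPM, edgeR called 3.65% of all genes lower in Rfx3-/-. It called 12 of 22 axoneme genes, 2 of 18 centriole genes and 0 of the 10 regulators lower there. That selection kept 2 knockout libraries and left out libraries 4 to 6, where the mean over the regulators was lowest. Its count of 0 therefore cannot show that the regulators are unchanged in this line. In Rfx1-/-, 0 genes of either list were called.

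Counts in other lists of the pathway stand beside the shares of all genes, 18.4% lower and 13.9% higher in Rfx2-/- and 12.9% lower and 10.6% higher in Rfx3-/-. Some lists were above those shares and some near or below them, and several counts rested on single libraries. Whether a list departs from the share of all genes was not tested. Signalling by the Notch pathway holds progenitors back from becoming multiciliated, but a change in a listed gene does not give the direction of signalling. Of 19 Notch pathway genes, 3 were lower and 5 higher in Rfx2-/- (median 0.09), among them Numb at 0.19 and Lfng at -0.29 on the log2 scale. In Rfx3-/-, 0 Notch genes were lower and 3 higher (median 0.20), among them Notch3 at 1.08 and Nrarp at 0.63, and the count higher was 1 without Rfx3-/- library 4, 5 or 6, 7 without Rfx3-/- library 3 and 5 without wild-type library 6.

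Of 16 mitotic genes that multiciliated cells reuse, 2 were lower and 1 higher in Rfx2-/- (median 0.04), with the cyclin Ccna1 at -1.24 and the phosphatase Cdc25a at 0.26. The mean over that list relative to wild types was 0.15, 0.32 and 0.25 (log2) in Rfx2-/- libraries 1 to 3 and -0.49, -0.30 and -0.41 in libraries 4 to 6, and wild-type libraries 1 to 3 were at 0.12 to 0.24 with libraries 4 to 8 at -0.19 to 0.05. With only libraries 4 and above, 7 of the 16 were called lower and 0 higher, and the count higher was 3 without Rfx2-/- library 4 or 6 and 2 without wild-type library 1. In Rfx3-/-, 1 mitotic gene was lower, Ccna1 at -0.98, and 4 higher (median 0.18), with Fbxo5, an inhibitor of the anaphase-promoting complex, at 0.65 and Cdk2 at 0.26. The count higher was 1 without Rfx3-/- library 4 and 2 without Rfx3-/- library 5 or 6 or wild-type library 2 or 3. The call of Ccna1 rested on the libraries too, with 0 mitotic genes lower when 1 of Rfx3-/- libraries 4 to 6 or 1 of wild-type libraries 1 to 5 was left out, and 2 without Rfx3-/- library 1.

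Of 18 relatives and partners of the E2F, p53 and forkhead factors, 3 were lower and 5 higher in Rfx2-/- (median 0.08), among them Foxn3 at 0.34 and Rbl2 at 0.16. The count lower was 1 without Rfx2-/- library 4 or 5 or wild-type library 6 or 7. In Rfx3-/-, 1 was lower and 3 higher (median 0.05), among them Trp53 at 0.35 and E2f3 at 0.43, and the count lower was 2 without Rfx3-/- library 1 or 2 or wild-type library 6. Of 7 RFX genes tested, 2 were lower in Rfx2-/-, the deleted Rfx2 at -1.13 (edgeR adjusted p = 1.34e-05) and Rfx8 at -0.89 (edgeR adjusted p = 0.0434), and the count was 1 when 1 of Rfx2-/- libraries 1 to 5 or 1 of wild-type libraries 3, 5 and 8 was left out. In Rfx3-/-, 3 RFX genes were lower (median -0.45), the deleted Rfx3 at -2.14, Rfx2 at -0.56 and Rfx1 at -0.45. Over all genes tested the median was 0.01 in Rfx2-/- and 0.02 in Rfx3-/-.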

How the data were processed

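RNA-seq libraries of cultured ependymal cells from 3 Rfx knockout lines and their wild-type siblings were analysed. The authors deposited raw read counts per gene. Per the submitters' processing notes, CASAVA 1.8.2, STAR 2.4 and featureCounts 1.4.6 were used, and the build was GRCm38. Their settings, the strand mode and the release of the gene models were not given in the sources used here.

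Counts were tested in R 4.3.3 with edgeR 4.0.16 (quasi-likelihood, TMM scaling, filterByExpr set to at least 10 reads and 15 in total), per line, knockouts against wild types, two-sided, with Benjamini-Hochberg adjustment over all genes and calls below 0.05. A fit of all 34 libraries in 6 groups gave differences between lines and between wild types. CPM used TMM scaling over 34 libraries. CPM per kilobase used the union of exons in GENCODE M21. Alternatives were DESeq2 1.42.0, other scaling and filters, a Y-linked term, the replicate number as a block, a joint fit and libraries left out. The script was tested on simulated data.

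Same-numbered knockout and wild-type libraries deviated together in 6 of 6 pairs of the Rfx2 line (r = 0.171 to 0.648, each above 0.1). Only 2 of the 6 knockouts correlated best with the wild type of their own number, and libraries of unlike number reached r = 0.728. The labels do not give the numbers as pairs, so the replicate block is an alternative fit that rests on an assumed pairing. Wild types 7 and 8 have no partner and were dropped from the block fit. In 85 replicate pairs no 2 libraries agreed within counting noise (chi-squared per degree of freedom 4.11 to 212).

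The 10 genes, the gene lists and the tests were chosen with earlier results of these data known. The text names all 10 genes, Rfx1 to Rfx3, up to 2 called genes per pathway list and line with the smallest p, and the genes most alike in level (5 for Mcidas and Foxj1, 1 for each other), without predicted genes and Riken clones. Deup1 and Pdgfra were given values after theirs were seen.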

Additional observations from a re-analysis of the deposited data

Results flagged for a closer look

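In 3 of the 60 groups of libraries checked (10 genes in 6 groups), 1 library stood apart from the others of its group by Dixon's criterion, which chance meets in about 1 in 20 groups. E2f5 read 37.1 CPM in Rfx3-/- library 3, while the other 5 libraries of that group read 25.4 to 29.5 CPM. Myb read 72.8 CPM in Rfx2-/- library 1, while the other 5 read 109 to 127 CPM. Trp73 read 20.1 CPM in the same Rfx2-/- library, while the other 5 read 26.7 to 29.6 CPM. Without that library the Rfx2 line still had 7 regulators called lower.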

How the results depend on the processing

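In the Rfx2 line, the 7 calls lower became 6 with all 34 libraries in 1 fit (Myb lost its call, edgeR adjusted p = 0.091), 0 with only libraries 1 to 3, and stood at 7 or 8 with each library left out in turn. The replicate block added 1 gene called higher, Gmnc. In the Rfx3 line, 0 calls lower became 2 with DESeq2, 6 with all 34 libraries in 1 fit and 0 to 2 with each library left out, and calls higher were 0 to 1 with each left out. With the replicate block the Rfx3 line had 0 calls and 7 genes lower at an unadjusted p below 0.05. At that threshold the block fit gave 4770 of all 14340 genes in either direction. Same-numbered libraries deviated together in 3 of 4 pairs of the Rfx1 line (r = -0.097 to 0.558) and 1 of 6 of the Rfx3 line (r = -0.401 to 0.210). The labels do not give the numbers as pairs in any line. The block changed no other call among the 10 genes. The number of genes differing between wild types was 5 to 7 over the alternatives (Ccno called at adjusted p = 0.0499 with RLE scaling, Mcidas missed at 0.0528 without the low-count filter, both edgeR).

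Apart from Ccno among low-Pdgfra libraries of the Rfx3 line, signs turned for log2 differences of at most 0.14 in size. With each library left out, the Rfx1 line gave -0.33 to 0.0029 for Myb, -0.20 to 0.019 for Foxj1, -0.17 to 0.061 for Ccno, -0.26 to 0.0080 for Cdc20b, -0.21 to 0.032 for Gmnc, -0.018 to 0.14 for E2f5, -0.22 to 0.12 for Foxn4 and -0.040 to 0.018 for E2f4, and with a Y-linked term 0.19 for Cdc20b and 0.047 for E2f4. In the Rfx3 line E2f4 gave -0.065 to 0.019 with each library left out, 0.012 with the Y-linked term and 0.16 among libraries with low Pdgfra, where Ccno gave 0.026, beside -0.60 with all libraries. The Rfx3 minus Rfx1 difference of E2f4 was -0.0028 with RLE scaling and -0.0029 with DESeq2, beside 0.0025. The cause of these shifts was not tested. Counting depth limits Foxn4 in Rfx2-/- most, at 67 reads in its lowest library.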
